A study of Astyanax mexicanus with 12 samples.

Results

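Expression of 10 enzymes that break down the branched-chain amino acids leucine, isoleucine and valine was described in the livers of the fish Astyanax mexicanus. The genes were chosen by name: bcat1, bcat2, bckdha, bckdhb, dbt, ivd, mccc1, mccc2, acad8 and hibadhb. Each of the 10 names matched 1 gene, with case ignored, among the 27420 genes of the expression table. The species has an eyed surface form that lives in rivers and a blind cave form, and liver RNA of both forms was compared in wild-caught and in laboratory fish. There were 4 groups of 3 livers each: cave fish caught in the wild, cave fish of the laboratory, surface fish caught in the wild and surface fish of the laboratory. Both cave groups are titled Pachón, after the cave. All of the fish were adults, and all were fasted for 12 hours before dissection. Sex, age, body size, diet and the time of capture were not known here, and the wild-caught and laboratory groups can differ in any of these as well as in environment. Nothing in the labels says that the 3 livers of a group came from separate broods or captures. The p-values rest on the spread between livers within groups, with 1 estimate per gene shared by the 4 groups.

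Branched-chain amino acids are first stripped of their amino group by the transaminases encoded by bcat1 and bcat2. The resulting keto acids are then committed to breakdown by the mitochondrial branched-chain keto acid dehydrogenase complex, whose kinase switches it off and whose phosphatase switches it on. After that step each amino acid has its own branch, and the carbon ends in acetyl-CoA, ketone bodies or propionyl-CoA. In mammals the liver holds little of the mitochondrial transaminase and much of the dehydrogenase complex, so it oxidises keto acids that other tissues release. The roles named here are those known from mammals.

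Messenger RNA was given in TPM, an abundance unit that is a share of each library corrected for transcript length, so levels can be compared between genes. TPM keeps no depth, and how many reads lie behind a value is unknown. Ribosomal protein genes (80 by name) took 33.0% to 36.3% of the TPM in wild-caught cave livers, against 16.4% to 22.6% in laboratory cave livers. They took 20.4% to 23.9% in wild-caught surface livers and 11.4% to 16.9% in laboratory surface livers. TPM sums to a fixed total in each library. The median over the 12895 tested genes was −0.69 on the log2 scale between wild-caught and laboratory cave fish, −0.11 between wild-caught and laboratory surface fish, −0.46 between cave and surface fish caught in the wild, and 0.10 between cave and surface fish of the laboratory. Each contrast was also computed after median-of-ratios scaling, which brings these medians to between −0.03 and 0.01. Wild-caught surface libraries 1 and 2 stood apart from the other 10 on the first principal component, at −113 and −101, with library 3 of that group at −37.3.

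Wild-caught livers gave these enzymes a smaller share of the transcripts than laboratory livers in both forms. The summed level of the 10 genes was 232 ± 21.8 TPM in wild-caught cave livers and 699 ± 50.7 TPM in laboratory cave livers (SD, n = 3 each). It was 184 ± 26.7 TPM in wild-caught surface livers and 535 ± 93.9 TPM in laboratory surface livers (SD, n = 3 each). In each form 8 of the 9 tested members fell in wild-caught fish, and hibadhb did not pass the test. Among all tested genes, 34.3% were called lower in wild-caught than in laboratory cave livers and 11.2% in wild-caught than in laboratory surface livers, so the count in cave fish stands against a far higher background than the count in surface fish. After median-of-ratios scaling 7 members stayed lower in wild-caught surface fish, where 8.86% of all genes were called lower, and 1 member, bckdha, stayed lower in wild-caught cave fish, where 3.51% were. Fewer cells of a type and less RNA per cell cannot be told apart in such bulk samples.

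**Figure D1:**
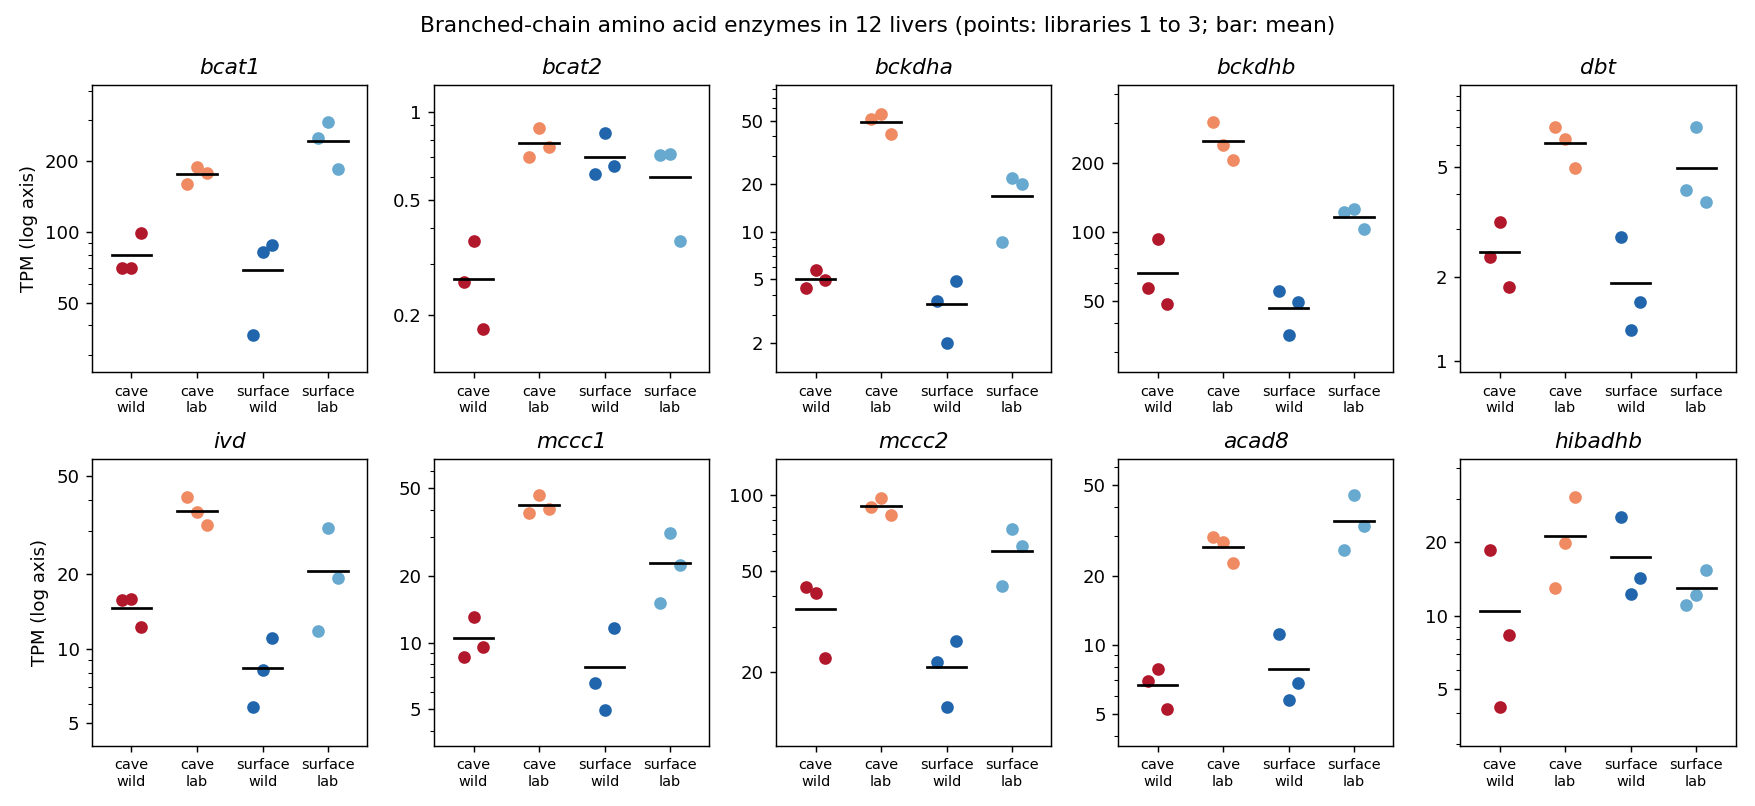
TPM (log axis) of the 10 enzymes in the 12 livers, grouped as wild-caught cave, laboratory cave, wild-caught surface and laboratory surface fish; points are libraries 1 to 3 from left to right and bars are group means. For 8 of the 10 genes (all but bcat2 and hibadhb) the wild-caught points lie below the laboratory points in both forms.

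The transaminases differed widely in level. The gene bcat1 (ENSAMXG00000031048 in Ensembl), which encodes the cytosolic enzyme in mammals, was the most or second most abundant of the 10 in every library. It measured 70.3, 70.1 and 98.5 TPM in wild-caught cave livers, against 160.3, 189 and 178 TPM in laboratory cave livers. In surface fish bcat1 measured 36.5, 81.8 and 87.7 TPM in wild-caught livers, against 251, 293 and 186 TPM in laboratory livers. All wild-caught values lay below all laboratory values in both forms, and the lowest of the 12 was wild-caught surface library 1. The log2 difference of bcat1, wild-caught minus laboratory, was −1.15 ± 0.37 in cave fish and −1.88 ± 0.37 in surface fish (SE; limma, Benjamini-Hochberg adjusted p = 0.0316 and 0.00874). Relative to the median of all genes these are −0.46 in cave fish and −1.77 in surface fish. Scaling took the cave value to −0.16 ± 0.37 (adjusted p = 0.832), where the cave groups overlapped. The surface value stayed at −1.74 ± 0.37 (adjusted p = 0.0127).

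The mitochondrial transaminase gene bcat2 (ENSAMXG00000014468) lay under 1 TPM in all 12 libraries and was not tested. Its levels were 0.26, 0.36 and 0.18 TPM in wild-caught cave livers, against 0.70, 0.88 and 0.76 TPM in laboratory cave livers. They were 0.61, 0.85 and 0.65 TPM in wild-caught surface livers, against 0.71, 0.72 and 0.36 TPM in laboratory surface livers. The wild-caught cave livers were at or below every other liver, sharing 0.36 TPM with laboratory surface library 3, while the surface groups overlapped. Within a library bcat1 exceeded bcat2 by a factor of 59.9 to 547. The narrow margin above 0 leaves the ratios of bcat2 uncertain.

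The dehydrogenase complex is built from a decarboxylase of alpha and beta subunits (bckdha and bckdhb) and a core that passes on the acyl group (dbt). For the alpha subunit, bckdha (ENSAMXG00000030349) measured 4.43, 5.78 and 4.93 TPM in wild-caught cave livers, against 51.5, 55.0 and 41.1 TPM in laboratory cave livers. It measured 3.68, 2.00 and 4.86 TPM in wild-caught surface livers, against 8.66, 21.9 and 20.0 TPM in laboratory surface livers. Neither pair of groups overlapped, and the laboratory cave livers stood above the other 9. Wild-caught minus laboratory, bckdha was at −3.05 ± 0.37 on the log2 scale in cave fish (SE, adjusted p = 7.4e-04), which is −2.36 relative to the median of all genes. In surface fish it was −1.94 ± 0.37 (adjusted p = 0.00783), or −1.83 relative to that median. Both remained under scaling, at −2.15 ± 0.36 in cave fish (adjusted p = 0.0058) and −1.79 ± 0.36 in surface fish (adjusted p = 0.0105).

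The beta subunit gene bckdhb (ENSAMXG00000016827) was more abundant throughout. Its levels were 57.2, 93.7 and 48.5 TPM in wild-caught cave livers, against 304, 241 and 207 TPM in laboratory cave livers. In surface fish they were 55.5, 35.5 and 49.4 TPM in wild-caught livers, against 123, 126 and 103 TPM in laboratory livers. Again neither pair overlapped, and the laboratory cave livers were the highest of the 12. On the log2 scale the difference of bckdhb was −1.94 ± 0.34 in cave fish and −1.33 ± 0.34 in surface fish (SE, adjusted p = 0.00276 and 0.0223). After scaling the surface value was −1.19 ± 0.33 (adjusted p = 0.0305) and the cave value −0.95 ± 0.33, which did not pass the test (adjusted p = 0.0991).

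The core subunit gene dbt (ENSAMXG00000017968) was the lowest of the 9 tested members in every library. It measured 2.36, 3.16 and 1.85 TPM in wild-caught cave livers, against 6.99, 6.29 and 4.98 TPM in laboratory cave livers. In surface fish dbt measured 2.80, 1.29 and 1.63 TPM in wild-caught livers, against 4.15, 6.98 and 3.73 TPM in laboratory livers. Wild-caught values lay below laboratory values in both forms. For dbt the log2 difference was −1.04 ± 0.29 in cave fish and −1.03 ± 0.29 in surface fish (SE, adjusted p = 0.0167 and 0.0305). The cave value shrank to −0.26 ± 0.24 under scaling (adjusted p = 0.533), and the surface value stayed at −0.90 ± 0.24 (adjusted p = 0.028).

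Because both subunits of the decarboxylase sit in the same library, their ratio does not depend on the library total. The ratio of bckdha to bckdhb was 0.0775, 0.0617 and 0.102 in wild-caught cave livers, against 0.169, 0.228 and 0.198 in laboratory cave livers. It was 0.0664, 0.0563 and 0.0983 in wild-caught surface livers, against 0.0704, 0.174 and 0.194 in laboratory surface livers. The cave groups did not overlap, whereas laboratory surface library 1 fell among the wild-caught surface livers. The ratio of dbt to bckdhb was 0.0337 to 0.0413 in wild-caught cave livers, above the 0.023 to 0.0261 of laboratory cave livers, and overlapped between the surface groups at 0.033 to 0.0505 in wild-caught and 0.0338 to 0.0554 in laboratory livers. These ratios show unequal differences between subunits within the same libraries; they are given as a description without a test.

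**Figure D2:**
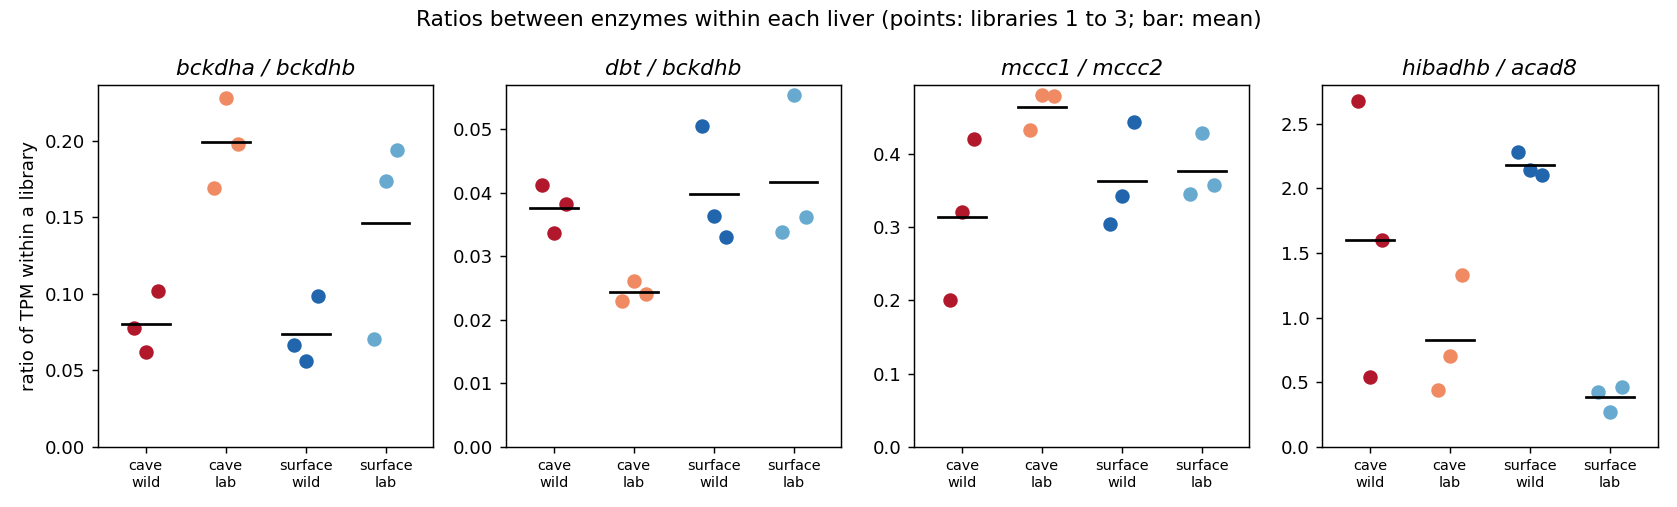
Ratio of TPM between pairs of enzymes within each library (axes start at 0), by group; points are libraries 1 to 3 and bars are means. The bckdha to bckdhb ratio lies at 0.0617 to 0.102 in wild-caught cave livers and at 0.169 to 0.228 in laboratory cave livers, while hibadhb to acad8 lies at 2.10 to 2.28 in wild-caught surface livers and at 0.27 to 0.464 in laboratory surface livers.

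Leucine is carried on by isovaleryl-CoA dehydrogenase (ivd) and by methylcrotonyl-CoA carboxylase, a biotin enzyme with an alpha subunit (mccc1) and a beta subunit (mccc2). For ivd (ENSAMXG00000030360) the levels were 15.8, 15.9 and 12.2 TPM in wild-caught cave livers, against 40.9, 35.8 and 31.7 TPM in laboratory cave livers. In surface fish they were 5.81, 8.23 and 11.0 TPM in wild-caught livers, against 11.8, 30.8 and 19.3 TPM in laboratory livers. The cave groups were well apart, and the surface groups met closely at 11.0 TPM (wild-caught library 3) and 11.8 TPM (laboratory library 1). The log2 difference of ivd was −1.25 ± 0.36 in cave fish and −1.15 ± 0.36 in surface fish (SE, adjusted p = 0.0206 and 0.0463). With replicate number as a block, the surface value had an adjusted p of 0.0527. Under scaling neither passed, at −0.30 ± 0.35 in cave fish and −1.01 ± 0.35 in surface fish (adjusted p = 0.635 and 0.0617).

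Both carboxylase subunits fell in wild-caught fish of both forms. The alpha subunit gene mccc1 (ENSAMXG00000001531) measured 8.65, 13.1 and 9.57 TPM in wild-caught cave livers, against 38.6, 46.8 and 40.2 TPM in laboratory cave livers. In surface fish it measured 6.61, 4.98 and 11.7 TPM in wild-caught livers, against 15.1, 31.5 and 22.4 TPM in laboratory livers. No wild-caught liver reached a laboratory liver of its form. Its log2 difference was −1.92 ± 0.36 in cave fish and −1.47 ± 0.36 in surface fish (SE, adjusted p = 0.00354 and 0.0198).

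For the beta subunit, mccc2 (ENSAMXG00000013897) measured 43.3, 40.9 and 22.8 TPM in wild-caught cave livers, against 89.4, 97.5 and 83.8 TPM in laboratory cave livers. Surface livers held 21.8, 14.6 and 26.4 TPM when wild-caught, against 43.8, 73.7 and 62.9 TPM in the laboratory. The groups of each form were apart, with wild-caught cave library 3 well under the other wild-caught cave livers. For mccc2 the log2 difference was −1.37 ± 0.36 in cave fish and −1.49 ± 0.36 in surface fish (SE, adjusted p = 0.0137 and 0.0187). After scaling both subunits remained lower in wild-caught surface fish, at −1.33 ± 0.34 for mccc1 and −1.35 ± 0.37 for mccc2 (adjusted p = 0.0243 and 0.0297). In cave fish the scaled values did not pass, at −0.98 ± 0.34 for mccc1 and −0.39 ± 0.37 for mccc2 (adjusted p = 0.102 and 0.548). The ratio of mccc1 to mccc2 was 0.20 to 0.420 in wild-caught cave livers, under the 0.432 to 0.480 of laboratory cave livers, and 0.304 to 0.443 in wild-caught surface livers, overlapping the 0.345 to 0.428 of laboratory surface livers.

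On the valine branch, isobutyryl-CoA dehydrogenase (acad8) and 3-hydroxyisobutyrate dehydrogenase (hibadhb) behaved differently. The levels of acad8 (ENSAMXG00000003161) were 6.92, 7.87 and 5.24 TPM in wild-caught cave livers, against 29.7, 28.1 and 22.9 TPM in laboratory cave livers. They were 11.1, 5.73 and 6.82 TPM in wild-caught surface livers, against 26.1, 45.0 and 33.2 TPM in laboratory surface livers. All 6 wild-caught livers lay below all 6 laboratory livers, whatever the form. The log2 difference of acad8 was −1.87 ± 0.32 in cave fish and −2.02 ± 0.32 in surface fish (SE, adjusted p = 0.00269 and 0.00352). Relative to the median of all genes these are −1.18 in cave fish and −1.91 in surface fish. Scaling left the surface value at −1.88 ± 0.29 (adjusted p = 0.00454) and the cave value at −0.96 ± 0.29 (adjusted p = 0.0711).

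The other valine enzyme gene, hibadhb (ENSAMXG00000000622), did not pass the test in either form. It measured 18.6, 4.23 and 8.36 TPM in wild-caught cave livers, against 13.0, 19.8 and 30.4 TPM in laboratory cave livers. In surface fish it measured 25.3, 12.3 and 14.3 TPM in wild-caught livers, against 11.1, 12.1 and 15.4 TPM in laboratory livers. Both pairs of groups overlapped. The log2 difference of hibadhb was −1.09 ± 0.48 in cave fish and 0.35 ± 0.48 in surface fish (SE, adjusted p = 0.0903 and 0.633). Without wild-caught cave library 1, which held 18.6 TPM, the cave value was −1.58 with an adjusted p of 0.0367. Relative to the median of all genes the cave value with all libraries was −0.40. Under scaling hibadhb was at −0.17 ± 0.53 in cave fish and 0.47 ± 0.53 in surface fish (adjusted p = 0.883 and 0.544). The ratio of hibadhb to acad8 was 2.28, 2.14 and 2.10 in wild-caught surface livers, against 0.424, 0.27 and 0.464 in laboratory surface livers, with no overlap. In cave fish that ratio overlapped, at 0.537 to 2.68 in wild-caught and 0.439 to 1.33 in laboratory livers. A paralogue, hibadha, is listed at 0.16 to 1.81 TPM, and how reads were divided between the paralogues was not tested.

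**Figure D3:**
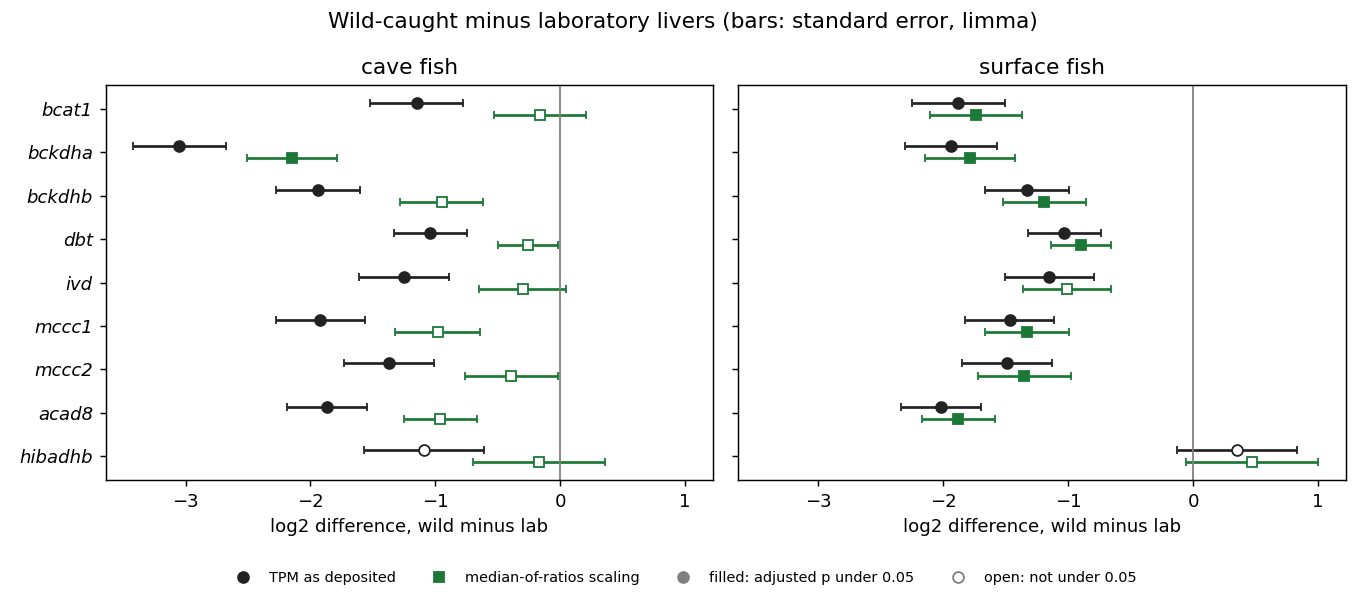
Log2 difference (wild-caught minus laboratory, bars show the standard error from limma) of the 9 tested enzymes in cave fish (left) and surface fish (right), for TPM as deposited and after median-of-ratios scaling; filled symbols have an adjusted p under 0.05. In surface fish the scaled values stay close to the unscaled ones, whereas in cave fish they move toward 0 and bckdha alone stays filled, at −2.15.

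Over the 9 tested members the median log2 difference, wild-caught minus laboratory, was −1.37 in cave fish and −1.47 in surface fish, beside −0.69 and −0.11 over all genes. Under scaling the members' medians were −0.39 in cave fish and −1.33 in surface fish. The wild-caught and laboratory libraries did not overlap for 8 of 9 members in either form, all lower in wild-caught fish. Of all tested genes 56.6% were without overlap and lower in wild-caught than in laboratory cave livers, and 20.7% in the surface comparison. With both forms averaged, the same 8 members were lower in wild-caught fish, where 35.9% of all genes were. After scaling ivd was not called in that average (−0.65, adjusted p = 0.0674), which left 7, beside 12.7% of all genes. The smallest adjusted p was 3.6e-04, for bckdha at −2.49 ± 0.26 (SE). For hibadhb the average was −0.37 ± 0.34 (adjusted p = 0.398).

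Single libraries bore on these counts. The count in cave fish was 5 of 9 without wild-caught cave library 3, laboratory cave library 1 or laboratory cave library 2, and the calls of bckdha, bckdhb, mccc1 and acad8 survived every omission. Of all genes 3120, 2915 and 2856 were called without those libraries, against 4618 with all 12. The call of bcat1 was lost without wild-caught cave library 1 or 2 or any 1 of the laboratory cave libraries (adjusted p from 0.0629 to 0.0962). Those of dbt and ivd were lost without wild-caught cave library 1 or 3 or laboratory cave library 1 or 2 (adjusted p from 0.0523 to 0.0676), and that of mccc2 without wild-caught cave library 3 (adjusted p = 0.0553). In surface fish the count was 3 without wild-caught surface library 2 or laboratory surface library 2 and 5 without laboratory surface library 3. Of all genes 942, 1496 and 1077 were called without those libraries, against 2317 with all 12. The surface calls of bcat1, bckdha and acad8 were kept in every omission of 1 library. The calls of bckdhb, dbt, mccc1 and mccc2 were lost without wild-caught surface library 2 or laboratory surface library 2 (adjusted p from 0.0518 to 0.105). Those of mccc1 and mccc2 were also lost without laboratory surface library 3 (adjusted p = 0.0535 and 0.0532), and that of mccc1 without wild-caught surface library 1 (adjusted p = 0.0635). The call of ivd held in 2 of the 12 omissions, those of wild-caught surface library 3 and laboratory surface library 1, with adjusted p up to 0.151 in the others. Without both wild-caught surface libraries that stood apart, the lone remaining library is assumed to vary like the other groups. Only effect sizes are therefore given for that fit, for the tested members other than acad8 and hibadhb. There bckdha was at −1.51, bcat1 at −1.44, bckdhb at −1.22, dbt at −1.14, mccc2 at −1.12, mccc1 at −0.86 and ivd at −0.75. In a fit of the 6 surface libraries alone limma called 0 of the 9 members, and 8 had an unadjusted p under 0.05. That fit called 122 of the 12895 tested genes, against 2317 in the fit of all 12 libraries.

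In laboratory fish bckdha rose in cave livers, to 49.2 ± 7.21 TPM in laboratory cave livers, against 16.8 ± 7.15 TPM in laboratory surface livers (SD, n = 3 each). The log2 difference, cave minus surface, was 1.58 ± 0.37 (SE, adjusted p = 0.0211), and 1.40 ± 0.36 after scaling (adjusted p = 0.0402). It was the 1 member called of 9, where 5.26% of all tested genes were called higher, and 3.50% after scaling. The call was lost without laboratory cave library 1, laboratory cave library 2 or laboratory surface library 1 (adjusted p = 0.0669, 0.0814 and 0.0835), and in a fit of the 6 laboratory libraries alone (adjusted p = 0.0577).

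The partner subunit bckdhb averaged 251 ± 49.3 TPM in laboratory cave livers and 117 ± 12.4 TPM in laboratory surface livers (SD, n = 3 each). Its log2 difference of 1.08 ± 0.34 did not pass the test over all genes (SE, adjusted p = 0.078), although the groups did not overlap. The same held for ivd, mccc1 and mccc2, at 0.87, 0.89 and 0.61 on the log2 scale (adjusted p = 0.19, 0.178 and 0.376). In all, 5 of 9 members were higher in every laboratory cave liver than in any laboratory surface liver, where 18.7% of all genes were. For bcat1 the value was −0.45 ± 0.37, for acad8 −0.33 ± 0.32, for dbt 0.28 ± 0.29 and for hibadhb 0.61 ± 0.48, each with overlapping groups (adjusted p from 0.541 to 0.658). After scaling bcat1 and acad8 were lower in laboratory cave livers without overlap, at −0.62 ± 0.37 and −0.50 ± 0.29. Neither was called (adjusted p = 0.401 and 0.397).

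Among wild-caught fish limma called 0 of 9 members between cave and surface livers, where 31.6% of all tested genes were called, and 0 had an unadjusted p under 0.05. The groups overlapped for every tested member but ivd (7.61% of all genes were higher without overlap), which averaged 14.6 ± 2.13 TPM in wild-caught cave livers and 8.36 ± 2.62 TPM in wild-caught surface livers (SD, n = 3 each). Its log2 difference was 0.77 ± 0.36 (SE, adjusted p = 0.120). After scaling, which moved the median of all genes from −0.46 to −0.03, 4 members were called higher in wild-caught cave livers, beside 10.1% of all genes. These were ivd at 1.41 ± 0.35, mccc2 at 1.39 ± 0.37, bckdhb at 1.14 ± 0.33 and dbt at 0.77 ± 0.24 (SE, adjusted p = 0.0195, 0.0263, 0.0358 and 0.0480). The scaled fit was not repeated with libraries left out. The median of the 9 members was 0.44 on the deposited scale, against −0.46 over all genes, and 1.04 after scaling, against −0.03. Of the 9 values, those of acad8 and hibadhb were below 0 as deposited, and that of acad8 turned to 0.43 ± 0.29 under scaling. With no filter on low values, bcat2 was tested as well and was called lower in wild-caught cave livers (adjusted p = 0.0456), in a fit where 13.8% of all genes were called.

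**Figure D4:**
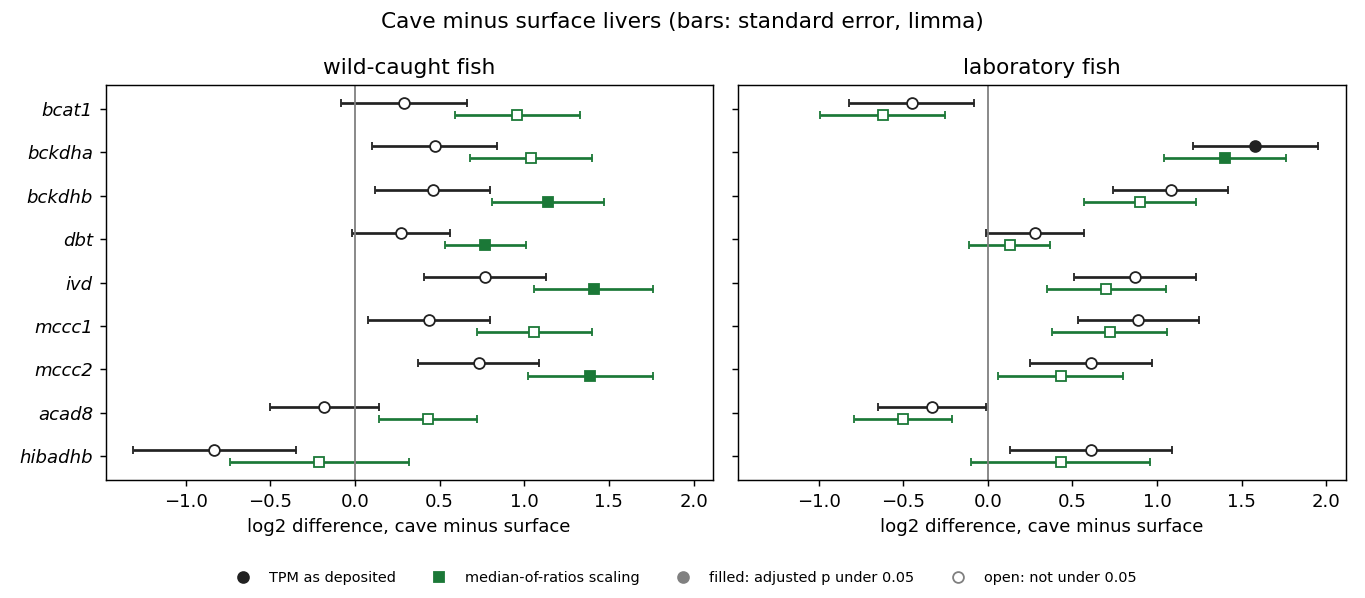
Log2 difference (cave minus surface, bars show the standard error from limma) of the 9 tested enzymes in wild-caught fish (left) and laboratory fish (right), for TPM as deposited and after median-of-ratios scaling; filled symbols have an adjusted p under 0.05. Scaling moves the values of wild-caught fish upward and fills 4 of them, and bckdha is filled on both scales in laboratory fish.

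Averaged over both environments, bckdha, bckdhb and ivd rose in cave livers, at 1.02 ± 0.26, 0.77 ± 0.24 and 0.82 ± 0.26 on the log2 scale (SE, adjusted p = 0.0192, 0.0374 and 0.0392). Of all tested genes 7.97% were called higher in this contrast. After scaling 5 members were, with mccc1 at 0.89 ± 0.24 and mccc2 at 0.91 ± 0.26 added (adjusted p = 0.027 and 0.0335), beside 10.4% of all genes. As deposited, the count was 1, with bckdha alone, without wild-caught cave library 2 or any 1 of the 3 laboratory cave libraries. It was also 1 without wild-caught surface library 2 or laboratory surface library 1 or 3. Those fits called 1626 to 3510 of all genes, against 2925 with all 12 libraries. The call of ivd was also lost without wild-caught cave library 1 or 3 or wild-caught surface library 1, and that of bckdhb without laboratory surface library 2 (adjusted p from 0.0558 to 0.0840). The count was 5 without wild-caught surface library 3, where 4436 of all genes were called. Without wild-caught surface libraries 1 and 2 together, bckdha, bckdhb and ivd were at 0.81, 0.72 and 0.62.

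Whether the form difference depended on the environment was tested as an interaction, wild-caught form difference minus laboratory form difference. Limma called 0 of 9 members, beside 5.08% of all tested genes, and 0 had an unadjusted p under 0.05. The values nearest to it were −1.11 ± 0.52 for bckdha and −1.43 ± 0.67 for hibadhb (SE, unadjusted p = 0.0552 and 0.0544). The median over all tested genes was −0.61, and relative to it these are −0.50 and −0.82. After scaling they were −0.35 ± 0.51 and −0.64 ± 0.75 (adjusted p = 0.742 and 0.675). Under scaling 2 members had an unadjusted p under 0.05, both with a positive value, and 0 were called, beside 2.10% of all genes. These were bcat1 at 1.58 ± 0.52 and acad8 at 0.92 ± 0.41 (SE, adjusted p = 0.13 and 0.245). The contrasts within cave fish, within surface fish, between wild-caught groups and between laboratory groups share libraries, so their values are set side by side and are not separate evidence.

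Beyond the 10 enzymes, 24 of 29 further pathway names were found in the table and 21 genes were tested. In wild-caught cave fish 8 of the 21 fell and 0 rose relative to laboratory cave fish, where 34.3% of all genes were called lower, with a median log2 difference of −0.97. After scaling 0 of the 21 were called in that contrast and 1 had an unadjusted p under 0.05. In wild-caught surface fish 7 fell and 0 rose, both as deposited and after scaling, with a deposited median of −1.18 (11.2% of all genes were called lower as deposited and 8.86% after scaling). The cave count ranged down to 1 without wild-caught cave library 3, and was 2 without laboratory cave library 1, 4 without laboratory cave library 2 and 5 without wild-caught cave library 1 or 2. In the same order those fits called 3120, 2915, 2856, 2179 and 3989 of all genes, against 4618 with all 12 libraries. In surface fish the count was 4 without wild-caught surface library 1 and 13 without library 3 of that group. These fits called 882 and 3616 of all genes, against 2317 with all 12 libraries.

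The isoleucine branch has no gene of its own among the 10. Of its 3 tested genes, 2 fell in wild-caught cave fish, beside 34.3% of all genes, and 3 in wild-caught surface fish, beside 11.2%. After scaling 0 of 3 were called in cave fish by limma (0 had an unadjusted p under 0.05) and 3 in surface fish. In a fit of the 6 surface libraries alone, which called 122 of all tested genes, none of the 3 was called. In that fit acat1, acadsb and hsd17b10 had adjusted p-values of 0.0733, 0.0948 and 0.106. Acetyl-CoA acetyltransferase (acat1), which releases acetyl-CoA at its end, measured 15.4, 7.62 and 7.17 TPM in wild-caught cave livers, against 44.8, 23.4 and 39.6 TPM in laboratory cave livers. It measured 7.64, 10.1 and 25.8 TPM in wild-caught surface livers, against 49.8, 89.2 and 69.0 TPM in laboratory surface livers. Neither pair of groups overlapped. Its log2 difference was −1.76 ± 0.47 in cave fish and −2.32 ± 0.47 in surface fish (SE, adjusted p = 0.0148 and 0.00985). The cave call of acat1 was lost under scaling (−0.83, adjusted p = 0.33) and without wild-caught cave library 3 or laboratory cave library 1 (adjusted p = 0.0526 and 0.0544). Without wild-caught surface libraries 1 and 2 the surface values of acat1, acadsb and hsd17b10 were −1.35, −1.25 and −1.07, given as effect sizes only. The other genes of the branch, acadsb and hsd17b10, named after their values were seen, were at −1.52 ± 0.37 and −1.63 ± 0.39 in surface fish (adjusted p = 0.0201 and 0.0187). In cave fish acadsb was at −1.39 ± 0.37 (adjusted p = 0.0157) and hsd17b10 at −0.23 ± 0.39 (adjusted p = 0.658). Leaving out wild-caught surface library 1 or laboratory surface library 2 lost the surface call of acadsb (adjusted p = 0.0751 and 0.0586). That of hsd17b10 was lost without wild-caught surface library 2 or laboratory surface library 3 (adjusted p = 0.0542 and 0.0510). In cave fish acadsb was not called without wild-caught cave library 1 or 3 or laboratory cave library 1 (adjusted p from 0.0554 to 0.0617) or after scaling (adjusted p = 0.44).

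Valine and isoleucine also yield propionyl-CoA, which enters the citric acid cycle through methylmalonyl-CoA. Methylmalonyl-CoA mutase (mut) measured 10.1, 12.6 and 6.53 TPM in wild-caught cave livers, against 25.4, 21.3 and 17.5 TPM in laboratory cave livers. In surface fish mut measured 4.57, 5.72 and 8.75 TPM in wild-caught livers, against 24.4, 19.4 and 14.7 TPM in laboratory livers. The groups of each form were apart. Wild-caught minus laboratory, mut was at a log2 difference of −1.09 ± 0.33 in cave fish and −1.49 ± 0.33 in surface fish (SE, adjusted p = 0.0265 and 0.0143). The cave call was lost under scaling (−0.16, adjusted p = 0.819) and without wild-caught cave library 1 or 3 or laboratory cave library 1 or 2 (adjusted p from 0.064 to 0.102). The surface call was lost without wild-caught surface library 1 (adjusted p = 0.0549) and in the fit of surface libraries alone (adjusted p = 0.0857). Without wild-caught surface libraries 1 and 2 the surface value of mut was −1.04.

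The epimerase of the same route, mcee, was lowest in wild-caught surface fish. It measured 6.29, 6.23 and 5.52 TPM in wild-caught cave livers, 8.85, 9.35 and 9.28 TPM in laboratory cave livers, 0.51, 1.98 and 3.57 TPM in wild-caught surface livers, and 6.63, 6.77 and 5.53 TPM in laboratory surface livers. Its log2 difference was −1.41 ± 0.34 between wild-caught and laboratory surface fish and 1.35 ± 0.34 between cave and surface fish caught in the wild (SE, adjusted p = 0.0186 and 0.0147). Both comparisons use the same 3 wild-caught surface livers, and without libraries 1 and 2 of these the values were −0.67 and 0.62. In fits of only the groups compared limma called neither (adjusted p = 0.113 and 0.0594). Between wild-caught and laboratory cave fish mcee was at −0.54, without overlap. That value was not called in the fit of all 12 libraries. It was called in a fit of the cave libraries alone (limma, adjusted p = 0.0498), which called 6209 of all genes.

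Medium-chain acyl-CoA dehydrogenase (acadm), which works mainly on fatty acids, measured 215, 124 and 262 TPM in wild-caught cave livers, against 392, 332 and 409 TPM in laboratory cave livers. It measured 34.3, 31.4 and 159 TPM in wild-caught surface livers, against 273, 569 and 465 TPM in laboratory surface livers. Wild-caught surface libraries 1 and 2 were far below library 3. The log2 difference of acadm, wild-caught minus laboratory, was −2.88 ± 0.56 in surface fish (SE, adjusted p = 0.00842) and −0.97 ± 0.56 in cave fish (adjusted p = 0.186). The cave groups did not overlap. Limma called the cave value in a fit of the cave libraries alone (adjusted p = 0.0391) and without wild-caught surface library 3 (adjusted p = 0.0488). Those fits called 6209 and 5269 of all genes in that contrast. Without wild-caught surface libraries 1 and 2 the surface value was −1.38. In the fit of surface libraries alone its adjusted p was 0.0807. Cave minus surface in wild-caught fish, acadm was at 1.76 ± 0.56 (adjusted p = 0.0339). That call was lost without wild-caught cave library 1, 2 or 3 or wild-caught surface library 1 or 2 (adjusted p from 0.0504 to 0.127). It was also lost with no filter on low values (adjusted p = 0.0655) and in a fit of the wild-caught libraries alone (adjusted p = 0.0914). Without both wild-caught surface libraries 1 and 2 this difference was 0.26.

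**Figure D5:**
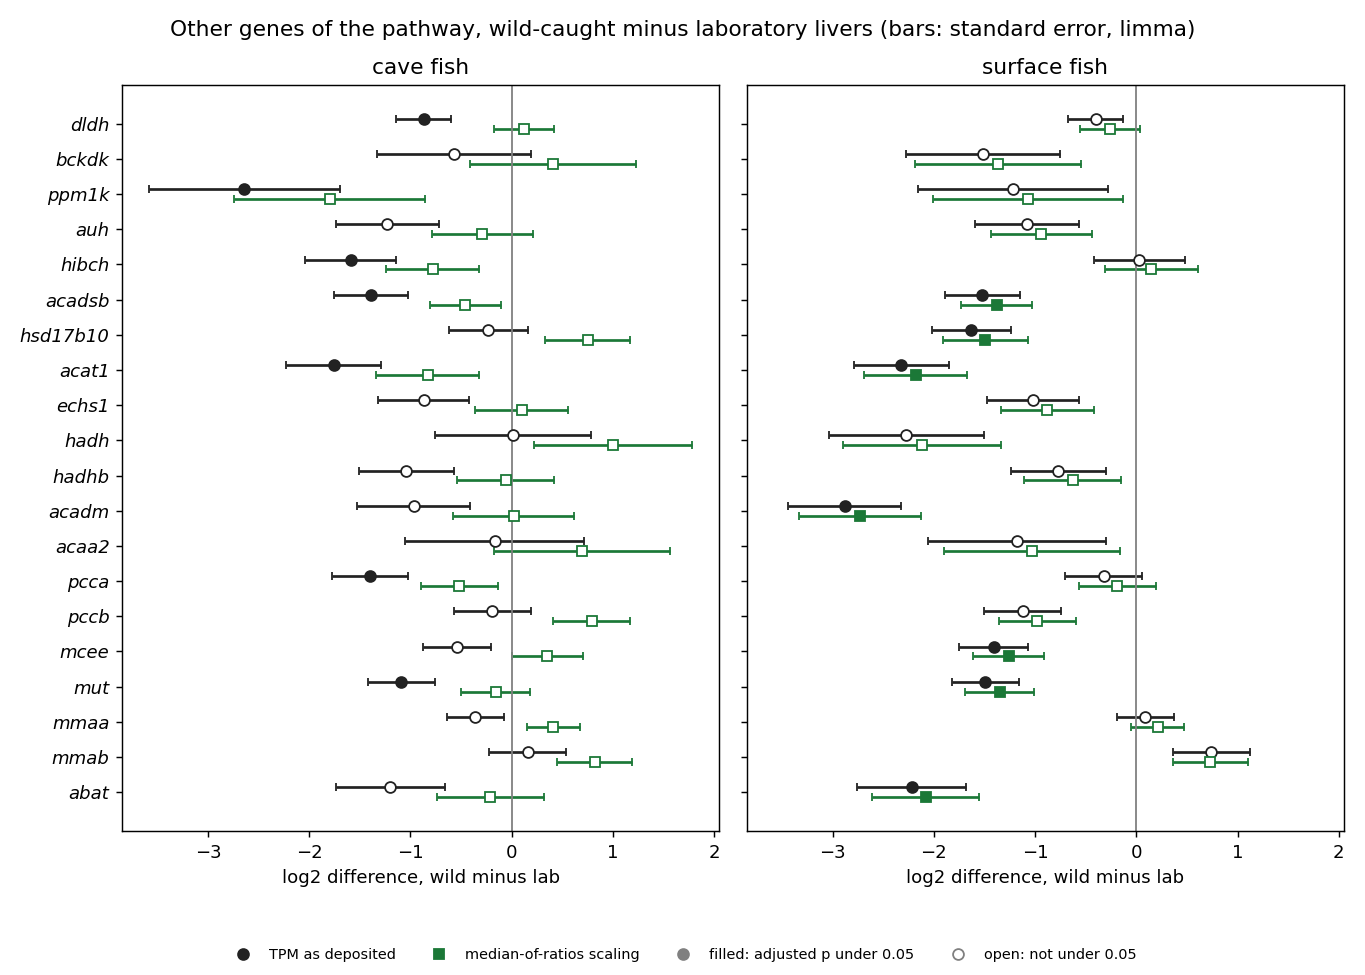
Log2 difference (wild-caught minus laboratory, bars show the standard error from limma) of 20 of the other tested pathway genes in cave fish (left) and surface fish (right), for TPM as deposited and after median-of-ratios scaling; filled symbols have an adjusted p under 0.05. In cave fish 7 of these genes are filled as deposited and 0 after scaling, and in surface fish 7 are filled on either scale.

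The control enzymes of the dehydrogenase complex are given as values chosen after they were seen. The kinase gene bckdk measured 40.9, 51.2 and 31.6 TPM in wild-caught cave livers, 36.4, 86.2 and 70.0 TPM in laboratory cave livers, 3.41, 11.0 and 59.9 TPM in wild-caught surface livers, and 52.5, 23.1 and 57.0 TPM in laboratory surface livers. It passed the test in none of the 4 contrasts between 2 groups (smallest adjusted p 0.148). The phosphatase gene ppm1k measured 2.96, 11.3 and 1.55 TPM in wild-caught cave livers, against 174, 12.1 and 12.0 TPM in laboratory cave livers, of which the first stood far above the others. In surface fish ppm1k measured 1.42, 3.16 and 6.27 TPM in wild-caught livers, against 5.62, 20.2 and 5.55 TPM in laboratory livers. The component that the complex shares with other dehydrogenases, dldh, measured 91.6 to 122 TPM in wild-caught cave livers, 184 to 203 TPM in laboratory cave livers, 101 to 125 TPM in wild-caught surface livers and 135 to 163 TPM in laboratory surface livers. It was called lower in wild-caught cave livers as deposited, where 34.3% of all genes were. Under scaling that log2 difference was 0.12 (adjusted p = 0.853). The call was also lost without wild-caught cave library 2 or 3 or any 1 of the laboratory cave libraries (adjusted p from 0.0570 to 0.0789).

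Of 11 transport genes found, 9 were tested, and the largest difference was in slc3a2b, a heavy chain of amino acid exchangers at the cell surface. It measured 0.99, 0.80 and 1.56 TPM in wild-caught cave livers, 3.06, 3.57 and 2.55 TPM in laboratory cave livers, 44.2, 29.5 and 17.1 TPM in wild-caught surface livers, and 3.48, 3.52 and 3.55 TPM in laboratory surface livers. The wild-caught surface livers stood above the other 9. On the log2 scale slc3a2b differed by −3.80 ± 0.31 between cave and surface fish caught in the wild and 2.69 ± 0.31 between wild-caught and laboratory surface fish (SE, adjusted p = 6.4e-05 and 7.1e-04). Both contrasts share the wild-caught surface livers. In cave fish the wild-caught minus laboratory value was −0.95 ± 0.31 (adjusted p = 0.0347), and it was −0.32 under scaling (adjusted p = 0.519). That cave call was also lost without wild-caught cave library 1 or 2 or any 1 of the laboratory cave libraries (adjusted p from 0.0593 to 0.11). Its paralogue slc3a2a, at 9.34 to 33.3 TPM over all 12 livers, was called in none of the contrasts between 2 groups (smallest adjusted p 0.714).

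The mitochondrial branched-chain amino acid carrier slc25a44b was lower in wild-caught cave livers, at 2.24, 1.16 and 2.52 TPM, against 7.69, 7.57 and 4.28 TPM in wild-caught surface livers. Its log2 difference was −1.33 ± 0.27 (SE, adjusted p = 0.00847), and −0.84 under scaling (adjusted p = 0.0563). Without wild-caught surface libraries 1 and 2 it was −0.86. Laboratory livers held 3.03 to 4.08 TPM in cave fish and 3.83 to 4.74 TPM in surface fish. In the whole transport list 2 of 9 tested genes fell and 0 rose in wild-caught cave fish relative to wild-caught surface fish, and 1 fell after scaling. Of all 12895 tested genes 31.6% were called in either direction as deposited. After scaling 2309 were called, 1300 of them higher.

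Of 4 tested genes for biotin enzymes and biotin supply, 3 fell in wild-caught cave fish and 2 in wild-caught surface fish relative to laboratory fish, beside 34.3% and 11.2% of all genes, and 0 in cave fish after scaling (limma, 1 with an unadjusted p under 0.05). Acetyl-CoA carboxylase 2 (acacb), a biotin enzyme of fat metabolism, measured 0.29, 1.89 and 0.96 TPM in wild-caught cave livers, against 8.95, 5.43 and 5.96 TPM in laboratory cave livers. It measured 0.12, 0.71 and 2.47 TPM in wild-caught surface livers, against 3.92, 10.2 and 3.78 TPM in laboratory surface livers. The wild-caught and laboratory livers of each form did not overlap. For acacb the log2 difference was −1.98 ± 0.46 in cave fish and −1.77 ± 0.46 in surface fish (SE, adjusted p = 0.00835 and 0.0242). The cave value was −1.37 under scaling (adjusted p = 0.0842). The surface call of acacb was lost with no filter on low values (adjusted p = 0.0554) and in the fit of surface libraries alone (adjusted p = 0.105). Its surface value was −0.88 without wild-caught surface libraries 1 and 2. The biotin count was 1 in cave fish without wild-caught cave library 1 or 3 or any 1 of the laboratory cave libraries. Those fits called 2179 to 3343 of all genes, against 4618 with all 12 libraries. In surface fish the biotin count was 0 without wild-caught surface library 1 or 2 or laboratory surface library 2, and 1 without laboratory surface library 3. In the first 3 of these fits acacb had adjusted p-values of 0.0931, 0.0715 and 0.0731. Of all genes 882, 942, 1496 and 1077 were called in the 4 fits, against 2317 with all 12 libraries.

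Genes whose levels followed a member most closely were found by the root mean square difference of their mean-centred log2(TPM + 1) values over the 12 libraries. For bckdha these were abca2, sort1b and atox1, at 0.38, 0.42 and 0.48. For acad8 they were acbd5a, fech and rab9b, at 0.30, 0.30 and 0.31. For bckdhb they were ehmt1b, oplah and fryl, at 0.30, 0.31 and 0.33. All 12 points share their libraries and the shift of the whole table described above.

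The liver label was checked against 18 hepatocyte marker genes found in the table, which summed to 53753 to 100257 TPM in wild-caught cave livers, 93927 to 104898 TPM in laboratory cave livers, 68081 to 80472 TPM in wild-caught surface livers and 94324 to 146225 TPM in laboratory surface livers. Of these markers rbp4l was at 0 in all libraries. Of 16 tested hepatocyte markers, 5 fell in wild-caught relative to laboratory cave livers and 4 in wild-caught relative to laboratory surface livers, where 1 rose, beside 34.3% and 11.2% of all genes called lower. After scaling 0 fell and 1 rose in cave fish, and 3 fell and 2 rose in surface fish, beside 3.51% and 8.86% of all genes called lower. The 7 erythrocyte markers summed to 108 to 180.4 TPM in wild-caught cave livers, 205 to 279 TPM in laboratory cave livers, 22.6 to 64.7 TPM in wild-caught surface livers and 192 to 377 TPM in laboratory surface livers. They were thus lower in wild-caught fish of both forms, as the enzymes were, with 4 of 6 tested markers called in each form and, after scaling, 0 in cave fish and 4 in surface fish. Of all genes 34.3% in cave fish and 11.2% in surface fish were called lower, and 3.51% and 8.86% after scaling. The part of blood or hepatocyte content in the enzyme differences was not tested.

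Of 12 leukocyte markers, 7 were called lower in wild-caught cave fish and 5 were called higher in wild-caught surface fish, relative to laboratory fish. Of all genes 34.3% were called lower in the cave comparison. In the surface comparison 2317 of the 12895 tested genes were called, 1444 of them lower. After scaling limma called 0 of 12 in cave fish (1 had an unadjusted p under 0.05), and 6 were higher in wild-caught surface fish. Of all genes 2365 were then called in the surface comparison, 1142 of them lower. The 12 leukocyte markers summed to 35.4 to 80.6 TPM in wild-caught cave livers, 111 to 162 TPM in laboratory cave livers, 123 to 138 TPM in wild-caught surface livers and 48.4 to 149 TPM in laboratory surface livers. Their sum thus overlapped between the surface groups. Laboratory surface libraries 1 and 2, at 139.5 and 149 TPM, lay above every wild-caught surface liver, and library 3, at 48.4 TPM, lay below. The 7 pancreatic enzyme markers summed to 770.4 to 1608 TPM in wild-caught cave livers, 202 to 1713 TPM in laboratory cave livers, 908 to 8556 TPM in wild-caught surface livers and 1102 to 3476 TPM in laboratory surface livers. The 14 muscle markers summed to 1.85 to 16.4 TPM in wild-caught cave livers, 19.4 to 24.3 TPM in laboratory cave livers, 2.10 to 38.4 TPM in wild-caught surface livers and 0.650 to 14.8 TPM in laboratory surface livers, with acta1a and pvalb1 at 0 in all 12. Their part in the enzyme differences was not tested.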

How the data were processed

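Total liver RNA of 12 fish was sequenced as stranded mRNA libraries (TruSeq kit, single reads on an Illumina instrument), per the labels' protocols. Reads were demultiplexed with bcl2fastq 2.18, and STAR 2.6.1c and RSEM were used, per the submitters' processing notes. The genome build, annotation and RSEM version, not given in the sources used here, stay unnamed, and no coordinate or sequence is printed. The deposited table holds TPM per gene and library, estimated by the authors; TPM keeps no depth, so no counting error can be given.

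Libraries were grouped by the form and environment in their labels. Values were analysed as log2(TPM + 1), for genes that reached 1 TPM in 3 or more of 12 libraries, in R 4.3.3 with limma 3.58.1. All libraries entered a linear model of the 4 group means, with moderated errors and a trend on the mean (eBayes). Tests were two-sided, with Benjamini-Hochberg adjustment over the 12895 tested genes and a threshold of 0.05. A change is therefore on the log2(TPM + 1) scale, which understates that of low genes. The procedure was tested on simulated data.

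The enzymes and gene lists were chosen with earlier results of these data known. All 10 enzymes are described. Of the other pathway, transport and biotin genes, the rule names the 8 with the smallest adjusted p among those called between any 2 groups, and for the 3 members called most often the 3 genes nearest in pattern. 1 gene that the rule selects is not reported here. Genes outside the rule are said to be chosen after their values were seen.

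Replicate numbers were checked as pairs by correlating the deviations from the group means. Of the 18 correlations 4 exceeded 0.1, and only the wild-caught and laboratory surface libraries had all 3 above it (0.153, 0.111 and 0.271); this pairing comes from the data, not from the labels. Alternatives were median-of-ratios scaling, a filter at 5 TPM or none, a pseudocount of 0.1, a replicate block, only the groups compared, each library left out, and wild-caught surface libraries 1 and 2 left out together. All but the scaling used the deposited TPM, so calls made after scaling were not checked with libraries left out.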

Additional observations from a re-analysis of the deposited data

Results flagged for a closer look

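The amino acid exchanger heavy chain gene slc3a2b differed between cave and surface fish by −3.80 ± 0.31 on the log2 scale in wild-caught livers and by −0.16 ± 0.31 in laboratory livers. The difference between these 2 form differences was itself tested and was −3.64 ± 0.44 (SE, limma, Benjamini-Hochberg adjusted p = 0.00277). All 3 wild-caught surface livers were above every other liver. The value was −3.10 ± 0.41 after median-of-ratios scaling (adjusted p = 0.00410), the adjusted p was 0.00776 with a replicate block, and over all 18 alternatives it ranged from −4.38 to −2.95 with adjusted p up to 0.0127.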

How the results depend on the processing

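With median-of-ratios scaling the count of called enzymes was 4 between cave and surface fish caught in the wild, 1 between wild-caught and laboratory cave fish, and 5 for the form average. Of all genes 10.1% were then called higher, 3.51% lower and 10.4% higher, in the same order. With no filter on low values 10 enzymes were tested, and the count was 1 between cave and surface fish caught in the wild. It was then 9 in cave fish and 6 in surface fish, where dbt and ivd lost their calls (adjusted p = 0.0555 and 0.0640). For the form average it was 2, without ivd (adjusted p = 0.0501). In the same order these fits called 3161, 4756, 1638 and 2540 of 22848 genes. In fits of only the groups compared it was 0 between laboratory groups and 0 between wild-caught and laboratory surface fish. Those fits called 787 and 122 of the 12895 tested genes. Without both wild-caught surface libraries 1 and 2 that group holds 1 library, and no count is given for that fit alone. The totals over 1152 alternatives below include its single enzyme results. Leaving out 1 library at a time, counts ranged from 0 to 1 between laboratory groups, 5 to 8 in cave fish, 3 to 8 in surface fish and 1 to 5 for the form average, and stayed at 8 for the environment average and at 0 for the wild-caught form contrast and the interaction. Of all genes these fits called 614 to 1059 between laboratory groups, 2179 to 5269 in cave fish and 882 to 3616 in surface fish. For the form average they called 1626 to 4436, and for the environment average 3933 to 5623. They called 1546 to 5162 for the wild-caught form contrast and 161 to 3035 for the interaction. Over 1152 alternatives for 63 single enzyme results, 1055 kept their side of the threshold, 35 of them with a change of sign while not called in either fit, 88 lost and 9 gained a call, and 0 called values changed sign. Among other genes dldh turned from a called −0.87 to 0.12 in cave fish under scaling. The causes of these changes were not tested. The replicate block removed the surface call of ivd (adjusted p = 0.0527), which left 7 enzymes called there, and changed no other enzyme call. The block fit called 2343 of all tested genes in that surface contrast.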
